A study of Mus musculus with 5 samples.

Results

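RING1B is the catalytic subunit of Polycomb Repressive Complex 1 (PRC1), and the genes described here encode tissue-specific basic helix-loop-helix (bHLH) transcription factors. The set is defined by gene family, with no measured value in its rule, but it was chosen with earlier results of these data known. It holds 58 genes of the 22350 protein-coding genes annotated on the autosomes and the X chromosome, and all 58 were found in the annotation. A gene was given a RING1B peak when a peak overlapped the gene body or lay within 5000 bases of the gene start.

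The peaks came from mouse embryonic fibroblasts (MEFs), cultured cells derived from an embryo that carries loxP-flanked EED alleles, in which EED, a subunit of PRC2, can be deleted with Cre. All 3 groups share these floxed alleles. The control group is the parental line with EED intact, the EZHIP group was stably transduced by lentivirus with human EZHIP, and the H3.3 K27M group was transduced in the same way with the mutant histone H3.3 K27M. Transduced cells were selected with puromycin, whereas the control is labelled parental, with no vector or selection stated. Effects of transduction and selection therefore cannot be told apart from those of the transgenes. The series holds 5 samples with 1 library per group. The other two, from cells with H3.3 K27R and from cells with EED deleted, were left aside here. The transgenes were carried by a vector with the EF1a promoter, active in most cell types, and the lines are fibroblasts, not the brain tumours in which EZHIP and H3.3 K27M occur.

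Factors of the bHLH family bind DNA as dimers through a basic region next to a helix-loop-helix dimerization domain, usually at the short motif called the E-box. Tissue-specific members pair with widely expressed E proteins and drive lineage decisions: neurogenins and NeuroD factors in neurons, OLIG factors in motor neurons and glia, MyoD and its relatives in skeletal muscle, and HAND, MESP and TWIST factors in mesoderm and mesenchyme. HES and HEY repressors act downstream of Notch, and ID proteins lack the basic region and sequester other bHLH factors. Polycomb complexes keep genes of this kind silent in cells of other lineages. PRC2 methylates histone H3 at lysine 27 (H3K27me3), PRC1 is recruited in part through this mark, and EZHIP and H3.3 K27M both inhibit PRC2.

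Each list gives only peak positions, built from bins of 200 bases, with no read count, so depth is unknown and nothing measures the spread between replicate libraries. The values below therefore compare 3 libraries as called, and no p-value was computed. There were 821 peaks in the control, 311 with EZHIP and 286 with H3.3 K27M. The study describes RING1B, in number and general distribution, as unaffected by EZHIP or H3.3 K27M, whereas these lists differ in number. No control peak was under 1000 bases wide, whereas 109 EZHIP and 59 H3.3 K27M peaks were. The methods give a minimum peak size for RING1B of 1000, which these narrow peaks do not meet, so the lists may have been called with different settings. Such a difference cannot be told apart from one between the cells in any comparison of counts or widths between lists. Positions of RING1B do not measure expression, so the identity of the cells could not be checked. Of marker genes listed for fibroblasts, 1 of 10 had a peak, against the 3.81% of all protein-coding genes with a control peak. It was Pdgfra, a growth factor receptor of mesenchymal cells, covered over 5399 bases in the control, 599 with EZHIP and none with H3.3 K27M. None of the 18 markers listed for neurons, skeletal muscle, endothelium and blood had a peak in any list.

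In control MEFs, 18 of the 58 bHLH genes (31.0%, 95% Wilson interval 20.6 to 43.8%) had a RING1B peak, against 3.81% of all protein-coding genes. In the EZHIP list 9 of 58 (15.5%, 95% interval 8.38 to 26.9%) had a peak, against 1.32% of all genes, and in the H3.3 K27M list 10 of 58 (17.2%, 95% interval 9.64 to 28.9%), against 1.21%. The EZHIP count fell to 5 when a peak had to overlap the gene start and to 4 with peaks of at least 5000 bases, while the H3.3 K27M count was 9 in both cases. The family was thus marked by RING1B more often than protein-coding genes in general in each library. These intervals cover counting error only and treat genes as independent, which neighbours such as Olig1 and Olig2 may not be. Of the 40 members without a control peak, none had a peak in a transduced line, where 0.209% of all genes without a control peak had one with EZHIP and 0.126% with H3.3 K27M. Thus 40 members had no peak in any list.

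The members were divided by their textbook roles into 6 classes. Neural factors carried most of the peaks. In the control, 12 of 21 neural genes (57.1%, 95% interval 36.5 to 75.5%) had a peak. Of 12 mesenchymal and mesodermal genes, 3 (25%, 95% interval 8.89 to 53.2%) had a control peak, and of 5 muscle genes none had a peak in any list, which at 5 genes allows a share of up to 43.4% (upper Wilson bound). The interval of the neural class overlapped those of the other classes taken singly. Against all 37 other members together, of which 6 (16.2%, 95% interval 7.65 to 31.1%) had a control peak, the intervals did not overlap. The classes were chosen with earlier results of these data known, and the intervals treat genes as independent. The separation therefore describes these genes in the control library and is not a test of a neural excess.

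**Figure D1:**
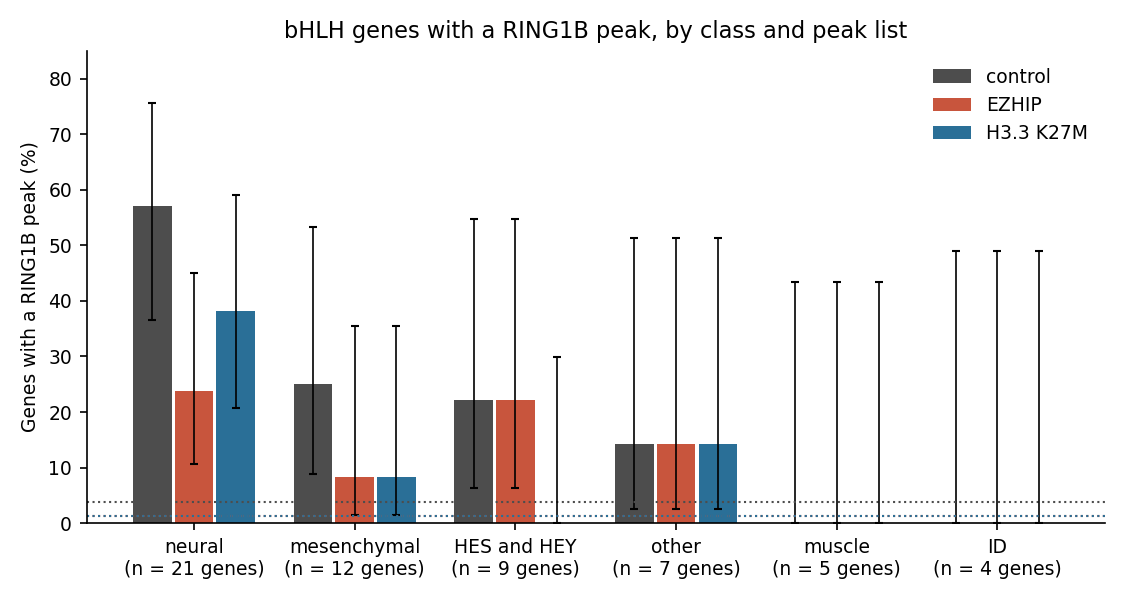
Percentage of bHLH genes with a RING1B peak in each class (bars, 3 lists per class), with 95% Wilson intervals as error bars and the percentage over all protein-coding genes as dotted lines in the colour of each list. The neural class stands highest in every list (57.1% control, 23.8% EZHIP, 38.1% H3.3 K27M), and the muscle and ID classes have no peak.

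In the transduced lines, 5 of 21 neural genes had an EZHIP peak and 8 had an H3.3 K27M peak, against 1.32% and 1.21% of all genes. A single mesenchymal gene, Tcf21, kept a peak in either line. Both HES and HEY genes with a control peak, Hey1 and Hey2, had an EZHIP peak and neither had an H3.3 K27M peak. None of the 4 ID genes, Id1 to Id4, had a peak in any list, which at 4 genes allows a share of up to 49.0% (upper Wilson bound). The bounds of the ID and muscle classes include the 3.81% of all genes with a control peak. In the remaining class of 7 genes (Ascl2, Atoh8, Bhlhe40, Bhlhe41, Figla, Lyl1 and Tal1), Tal1, a regulator of blood cell specification, was the member with a peak, and it had a peak in all 3 lists.

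The sequence just upstream of the gene start is shown for members of each kind, because Polycomb complexes are known to gather at DNA rich in the dinucleotide CpG. The lines give the 250 bases before the start of Sim1 (chr10:50615207-50615456, plus strand) and Neurog2 (chr3:127335804-127336053, plus strand), the members with the widest control peaks among those with a peak in all lists, of Ptf1a (chr2:19367040-19367289, plus strand) and Hand2 (chr8:59799530-59799779, plus strand), which had the widest among those with a control peak alone, and of Ascl2 (chr7:150155170-150155419, minus strand), which had no peak. All were read 5′ to 3′ from NCBIM37, the assembly behind mm9, and CpG dinucleotides are in capitals.
Sim1: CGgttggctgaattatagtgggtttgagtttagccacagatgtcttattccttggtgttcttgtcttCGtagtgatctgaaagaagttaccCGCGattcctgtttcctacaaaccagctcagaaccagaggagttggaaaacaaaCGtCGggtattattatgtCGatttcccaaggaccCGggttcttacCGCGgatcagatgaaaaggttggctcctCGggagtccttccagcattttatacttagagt
Neurog2: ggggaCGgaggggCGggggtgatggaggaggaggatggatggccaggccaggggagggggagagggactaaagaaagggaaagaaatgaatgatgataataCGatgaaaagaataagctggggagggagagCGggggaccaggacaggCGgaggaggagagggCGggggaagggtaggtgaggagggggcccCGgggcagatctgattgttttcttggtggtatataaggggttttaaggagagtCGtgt
Ptf1a: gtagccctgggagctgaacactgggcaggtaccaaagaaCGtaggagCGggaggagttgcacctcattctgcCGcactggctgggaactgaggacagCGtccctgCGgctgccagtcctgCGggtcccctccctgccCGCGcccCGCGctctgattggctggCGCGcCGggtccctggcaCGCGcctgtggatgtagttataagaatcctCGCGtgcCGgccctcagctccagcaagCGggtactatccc
Hand2: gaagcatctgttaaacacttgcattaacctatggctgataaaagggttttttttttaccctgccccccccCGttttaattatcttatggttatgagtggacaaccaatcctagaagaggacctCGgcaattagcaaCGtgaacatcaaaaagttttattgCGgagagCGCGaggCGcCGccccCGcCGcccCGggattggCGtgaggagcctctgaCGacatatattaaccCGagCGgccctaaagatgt
Ascl2: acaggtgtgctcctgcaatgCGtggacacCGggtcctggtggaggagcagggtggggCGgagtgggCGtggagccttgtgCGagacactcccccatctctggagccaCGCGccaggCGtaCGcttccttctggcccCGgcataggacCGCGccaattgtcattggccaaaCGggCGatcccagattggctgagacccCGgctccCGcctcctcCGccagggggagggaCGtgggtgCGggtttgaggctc
The stretch held 11 CpG in Sim1, 8 in Neurog2, 19 in Ptf1a, 15 in Hand2 and 19 in Ascl2. In these 5 genes the count did not follow the presence of a peak, since Ascl2 without a peak had as many as Ptf1a.

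Over a wider window, 500 bases on either side of the start, members with a control peak held a median of 62 CpG (range 26 to 110, n = 18) and members without a peak a median of 45 (range 5 to 122, n = 40). The ranges overlapped widely. For all protein-coding genes the medians were 66 CpG with a control peak (n = 851) and 39 without (n = 21499), so the members followed the same order. Within the neural class the medians were 62 with a peak (range 34 to 99, n = 12) and 32 without (range 5 to 82, n = 9). Among the 9 neural genes without a peak, 6 lay below every neural gene with a peak: Nhlh1 (5 CpG), Neurod6 (9), Nhlh2 (10), Neurod4 (11), Ferd3l (32) and Tal2 (33). The order was the opposite in the mesenchymal class, with a median of 38 for the 3 genes with a peak and 50 for the 9 without. Twist1 and Tcf15, regulators of mesenchyme and somites, had no peak and held 114 and 117 CpG. These 8 genes without a peak were singled out after their values were seen. The window is centred on the 5′ end of the gene record. That end lay 1613 to 8837 bases from the coding start in Neurod6, Nhlh2, Nhlh1, Tal2 and Neurod4, and 65 bases in Ferd3l. In neural genes with a peak it lay at most 1714 bases away (Neurod1). Whether this placement bears on the low counts was not tested.

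The control peaks of bHLH genes were wide. Members with a control peak were covered over a median of 10299 bases (range 1599 to 27199, n = 18), against a median of 3999 bases for all 851 protein-coding genes with a control peak. Of the 19 control peaks assigned to members, 15 were wider than the median of the whole list, 3399 bases, and 9 spanned at least 10000 bases, a width reached by 19.4% of all control peaks. The gene start lay inside a control peak in 15 of the 18 members, against 74.1% of all genes with a control peak. In 12 of these 15 the peak reached farther in the direction of transcription than upstream, with medians of 8168 bases downstream and 3637 bases upstream of the start. This was not counted over all genes, so it cannot be called particular to the members.

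**Figure D2:**
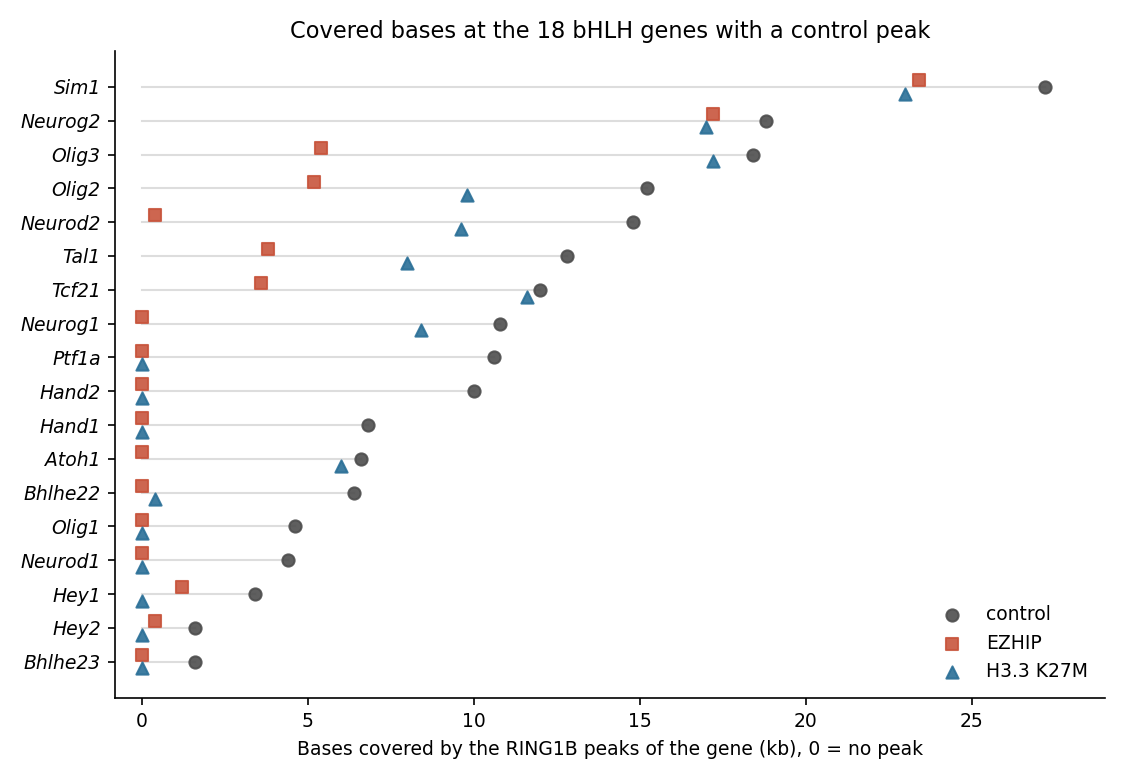
Bases covered by RING1B peaks (kb, x axis) at each of the 18 bHLH genes with a control peak, ordered by the control value, with circles for the control, squares for EZHIP and triangles for H3.3 K27M, and 0 where a list has no peak. All EZHIP and H3.3 K27M points lie left of the control point of their gene, and Neurog2 and Sim1 have the highest ratios of EZHIP to control bases, 0.915 and 0.860.

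Of the 18 members with a control peak, 9 (50.0%, 95% interval 29 to 71.0%) also had an EZHIP peak, against 29.3% of all genes with a control peak. An H3.3 K27M peak was found at 10 (55.6%, 95% interval 33.7 to 75.4%), against 28.6%. The interval for EZHIP includes the share over all genes, near its lower end, whereas that for H3.3 K27M lies above it. A peak in both lines was present at 7 members (38.9%, against 20.1% of all genes) and a peak in neither at 6 (33.3%, against 62.3%).

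The members with a peak in a transduced line were counted by the width covered in the control. Of 9 members covered over at least 10000 bases in the control, 7 (77.8%) had a peak with EZHIP and 8 (88.9%) with H3.3 K27M, where all genes of that width gave 67.3% and 71.3%. Of 5 members covered over less than 5000 bases, 2 had an EZHIP peak and none an H3.3 K27M peak, where all genes gave 11.6% and 6.90%. The 4 members in between gave none with EZHIP and 2 with H3.3 K27M, where all genes gave 31.1% and 37.0%. With H3.3 K27M the share rose from class to class, in the members as in all genes, whereas with EZHIP it did so over all genes and not over the members. Within width classes the members lay above all genes in some classes and below in others for both lines, and with 4 to 9 members each, differences of this size were not resolved.

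At the members with peaks in both lists, peaks were narrower in the transduced lines. For EZHIP, the median ratio to the control bases was 0.300 (range 0.0270 to 0.915, n = 9), and all 9 values were below 1. Over all genes, 227 of 249 values were below 1, and the median ratio was 0.405. For H3.3 K27M the median ratio was 0.812 (range 0.0624 to 0.967, n = 10), again all below 1. Over all genes it was 0.645, with 220 of 243 values below 1. Narrowing was thus general and not particular to the members. These medians leave out members with no peak in the transduced line, and over all 18 members with a control peak, those without one set at 0, the EZHIP median was 0.0135 and the H3.3 K27M median 0.344. Single members lay on either side of these all-gene medians, with Neurog2 (0.915) and Sim1 (0.860) above that for EZHIP and Bhlhe22 (0.0624) and Tal1 (0.625) below that for H3.3 K27M. Every base of these EZHIP and H3.3 K27M peaks lay inside the control peak of the same gene. Over all genes, 14.1% of the 249 with control and EZHIP peaks had bases outside it, and 13.2% of the 243 with control and H3.3 K27M peaks. With 9 and 10 members, an absence cannot be told apart from shares of this size.

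Directly compared, the H3.3 K27M list covered more bases than the EZHIP list at 5 of the 7 members with both peaks, with a median ratio of 2.11 (range 0.983 to 24.1). Over the 196 protein-coding genes with both, the median was 1.14, and 127 were above 1. The share above 1 was thus similar in the members and in all genes, and the medians differ over only 7 members, with no replicate to measure the error.

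**Figure D3:**
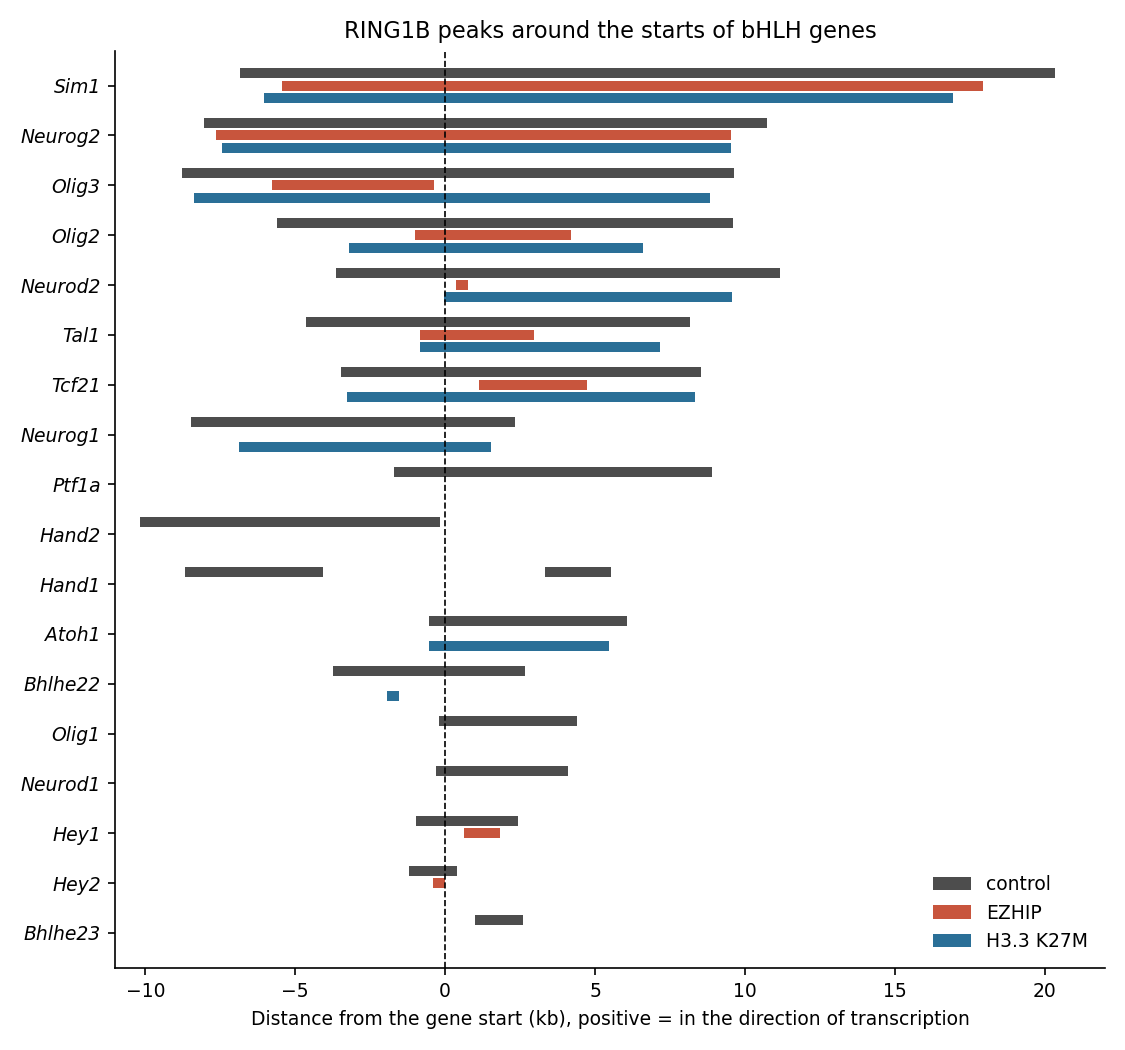
RING1B peaks at the 18 bHLH genes drawn by their distance from the gene start (kb, positive in the direction of transcription), with control, EZHIP and H3.3 K27M bars from top to bottom for each gene. The EZHIP bars of Olig3, Neurod2, Tcf21 and Hey1 lie beside the start, while the H3.3 K27M bars cross it at every gene that has one except Bhlhe22.

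Among the neural genes, Sim1 and Neurog2 kept the largest part of their control bases with EZHIP, while with H3.3 K27M Olig3 (0.935) and Atoh1 (0.909) kept a larger part than either. Sim1, which directs hypothalamic neurons, lay under a control peak of 27199 bases (chr10:50608601-50635799) that includes the gene start and reaches 20342 bases into the gene. The EZHIP peak there spanned 23399 bases and the H3.3 K27M peak 22999 bases, 0.860 and 0.846 times the control. At Neurog2, a proneural factor of the cortex and sensory ganglia, the control peak of 18799 bases (chr3:127328001-127346799) covered the whole gene, with 17199 bases for EZHIP and 16999 bases for H3.3 K27M. The transduced lines ended at the same position, 9545 bases past the start. These are the members at which the EZHIP list covered slightly more than the H3.3 K27M list.

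The OLIG genes differed from each other. Olig3, a factor of dorsal spinal cord progenitors, had a control peak of 18399 bases (chr10:19067601-19085999), and with H3.3 K27M its peak spanned 17199 bases. Its EZHIP peak spanned 5399 bases and ended 367 bases before the gene start, so that the gene itself carried none. Olig2, which specifies motor neurons and oligodendrocytes, was covered over 15199 bases in the control (chr16:91220201-91235399), 5199 with EZHIP and 9799 with H3.3 K27M. All 3 of these peaks included the whole Olig2 gene. Olig1, its neighbour and a factor of oligodendrocyte maturation, had a separate control peak of 4599 bases (chr16:91269801-91274399) and no peak in either transduced line.

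Neurod2, a factor of cortical neuron differentiation, had the highest ratio of H3.3 K27M to EZHIP bases (24.1). Its control peak spanned 14799 bases (chr11:98179801-98194599), its H3.3 K27M peak 9599 bases, and its EZHIP peak 399 bases. The H3.3 K27M peak ended 37 bases upstream of the gene start, and the EZHIP peak lay in the intron, 363 bases into the gene. Neurod1, a factor of neurons and pancreatic islets, was covered over 4399 bases in the control (chr2:79292801-79297199), a peak that also holds the start of Cerkl, and had no peak in the other lists.

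The neural genes Atoh1, Neurog1 and Bhlhe22 had an H3.3 K27M peak without an EZHIP peak. Neurog1, a factor of cranial sensory neurons, was covered over 10799 bases in the control (chr13:56351201-56361999) and 8399 bases with H3.3 K27M. Atoh1, required for inner ear hair cells and cerebellar granule neurons, was covered over 6599 bases in the control (chr6:64678601-64685199) and 5999 bases with H3.3 K27M, from the same upstream edge. Bhlhe22, a factor of retinal and spinal interneurons, fell from 6399 bases in the control (chr3:17950601-17956999) to 399 bases with H3.3 K27M, which lay 1526 bases upstream of the start. Of the neural genes, Bhlhe22 thus had the smallest remainder in the H3.3 K27M list.

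Ptf1a and Bhlhe23 had a control peak alone, as did Neurod1 and Olig1. Ptf1a, a factor of the pancreas and of inhibitory neurons, lay under 10599 bases in the control (chr2:19365601-19376199), which covered the whole gene, and was the widest member without a peak in the other lists. Bhlhe23, a factor of retinal bipolar cells, had 1599 bases (chr2:180509001-180510599) that began 1006 bases into the gene. Neural genes without a peak in any list were Atoh7, Ferd3l, Neurod4, Neurod6, Neurog3, Nhlh1, Nhlh2, Sim2 and Tal2.

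Of the mesenchymal genes, Tcf21, a factor of lung, kidney and epicardial mesenchyme, was covered over 11999 bases in the control (chr10:22531401-22543399) and 11599 bases with H3.3 K27M, the highest H3.3 K27M ratio of any member (0.967). Its EZHIP peak spanned 3599 bases and began 1135 bases into the gene. Hand1 and Hand2, regulators of the heart and other mesoderm, had control peaks beside their starts and none in the other lists. The Hand2 peak of 9999 bases (chr8:59789601-59799599) ended 181 bases before the start, and the Hand1 peaks of 4599 bases (chr11:57650401-57654999) and 2199 bases (chr11:57640801-57642999) lay 4081 bases upstream and 3321 bases downstream of the start. The former holds the start of Gm11003. When a peak had to overlap the start itself, Tcf21 was the mesenchymal gene left.

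The mesenchymal genes without a peak were Bhlha9, Mesp1, Mesp2, Msgn1, Scx, Tcf15, Tcf23, Twist1 and Twist2. The muscle genes, all without a peak, were Myod1, Myf5, Myf6 and Myog, the factors that commit and differentiate skeletal muscle, and Msc, a factor of jaw muscle. Over all 40 members without a peak, the median distance from the start to a control peak was 1362121 bases, and 4 of 40 had a control peak within 100000 bases. The closest were Hes2 (27577 bases), Bhlha9 (48773 bases) and Scx (60533 bases), so none lay just outside the limit of 5000 bases. Just inside it was Hand1, with the upstream peak at 4081 bases.

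Hey1 and Hey2, repressors that act after Notch in heart and vessels, had narrow control peaks and formed the reverse of Atoh1, Neurog1 and Bhlhe22, with an EZHIP peak and no H3.3 K27M peak. Hey1 was covered over 3399 bases in the control (chr3:8664601-8667999) and 1199 bases with EZHIP, which began 640 bases into the gene. Hey2 was covered over 1599 bases in the control (chr10:30562201-30563799) and 399 bases with EZHIP, which included the start. The other genes of this class, Hes1, Hes2, Hes3, Hes5, Hes6, Hes7 and Heyl, had no peak. Tal1 was covered over 12799 bases in the control (chr4:114724401-114737199), 3799 with EZHIP and 7999 with H3.3 K27M, and the start lay in all 3 peaks.

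Counted over members with a peak in the list, the start lay inside a peak at 5 of 9 with EZHIP (against 45.2% of all genes with an EZHIP peak) and at 9 of 10 with H3.3 K27M (against 61.5%). At the start itself, peaks of the control covered 15 of the 18 genes, those of EZHIP 5 and those of H3.3 K27M 9. The EZHIP count was highest not at the start but from 1200 to 1800 bases past it, with 6 genes, a difference of a single gene. Any peak of the list counts in this profile, assigned to the gene or not.

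**Figure D4:**
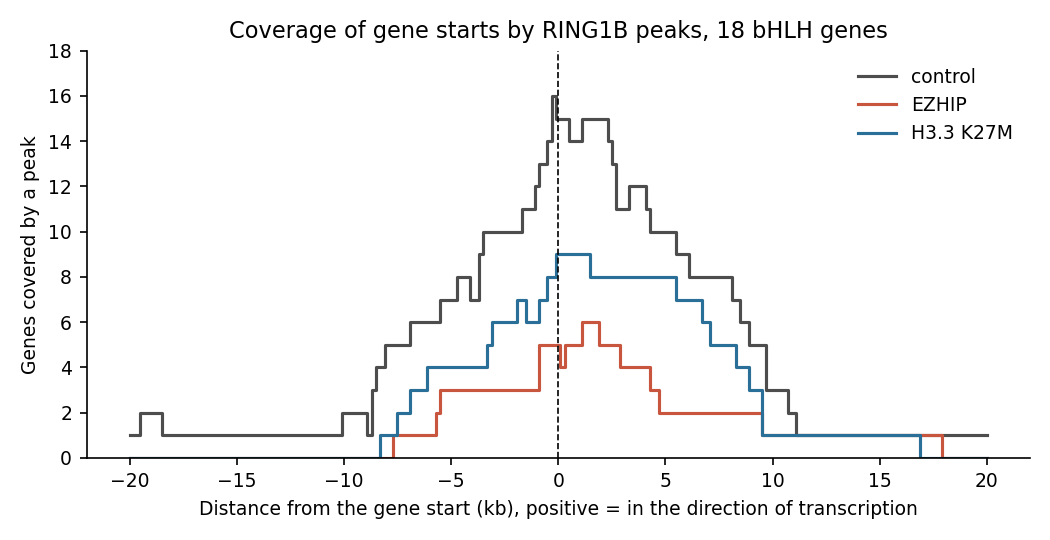
Number of the 18 bHLH genes covered by a RING1B peak (y axis) at each distance from the gene start (kb, positive in the direction of transcription), for the 3 lists. At the start 15 genes are covered in the control, 9 with H3.3 K27M and 5 with EZHIP, and the control curve lies above the others over most of the range.

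The narrowest remainders, 399 bases each, were those of Bhlhe22 with H3.3 K27M and of Hey2 and Neurod2 with EZHIP. The middle 300 bases of each are shown on the strand of the gene, since they are the only places at these genes still called in that list: Bhlhe22 (chr3:17952451-17952750, plus strand, upstream of the gene), Hey2 (chr10:30562651-30562950, minus strand, upstream of the start) and Neurod2 (chr11:98190251-98190550, minus strand, intron). CpG dinucleotides are in capitals. The 3 genes were chosen after their values were seen.
Bhlhe22: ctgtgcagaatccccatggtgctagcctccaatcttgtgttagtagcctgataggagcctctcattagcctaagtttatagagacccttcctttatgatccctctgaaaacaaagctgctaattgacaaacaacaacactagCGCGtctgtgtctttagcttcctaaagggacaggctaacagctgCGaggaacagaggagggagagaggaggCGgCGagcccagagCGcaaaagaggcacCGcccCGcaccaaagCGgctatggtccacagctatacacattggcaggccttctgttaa
Hey2: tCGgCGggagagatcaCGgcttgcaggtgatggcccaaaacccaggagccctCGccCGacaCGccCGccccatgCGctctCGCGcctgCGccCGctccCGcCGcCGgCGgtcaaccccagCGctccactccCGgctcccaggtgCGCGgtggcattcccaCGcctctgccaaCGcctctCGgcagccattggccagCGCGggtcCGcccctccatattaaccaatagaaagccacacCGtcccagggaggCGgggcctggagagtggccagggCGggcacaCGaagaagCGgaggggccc
Neurod2: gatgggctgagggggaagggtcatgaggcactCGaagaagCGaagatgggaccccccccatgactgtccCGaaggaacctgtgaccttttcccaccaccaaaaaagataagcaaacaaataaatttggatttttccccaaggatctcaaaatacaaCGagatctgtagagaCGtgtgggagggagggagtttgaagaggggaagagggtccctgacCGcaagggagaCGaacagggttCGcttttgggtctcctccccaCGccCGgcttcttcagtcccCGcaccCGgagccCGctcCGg
These stretches held 9, 31 and 14 CpG, respectively. Peaks this narrow have no counterpart in the control list, whose narrowest peak spanned 1199 bases. With a common minimum of 1000 bases, 7 members had an EZHIP peak and 9 an H3.3 K27M peak.

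The part of each control peak that also had a peak in a transduced line was compared with the rest of the same control peak for CpG density. With EZHIP, the retained part was denser in 8 of 9 members, with a median of 2.97 CpG per 100 bases (range 1.93 to 10.5) against 2.19 in the rest (range 0.605 to 8.36). Hey1 was the exception, with 2.0 in the retained part and 8.36 in the rest. With H3.3 K27M, the retained part was denser in 7 of 10 members, with a median of 3.04 (range 1.75 to 4.04) against 2.09 (range 0.500 to 6.17), and Atoh1, Bhlhe22 and Neurog1 were the exceptions. Over all control peaks of the list the order was the opposite, with 3.03 CpG per 100 bases in the parts with an EZHIP peak and 3.61 in the parts without, and 3.17 against 3.64 for H3.3 K27M. The latter pool also includes control peaks with no peak at all in the transduced line, which the member comparison does not. The chromosomes as a whole held 0.834 CpG per 100 bases.

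**Figure D5:**
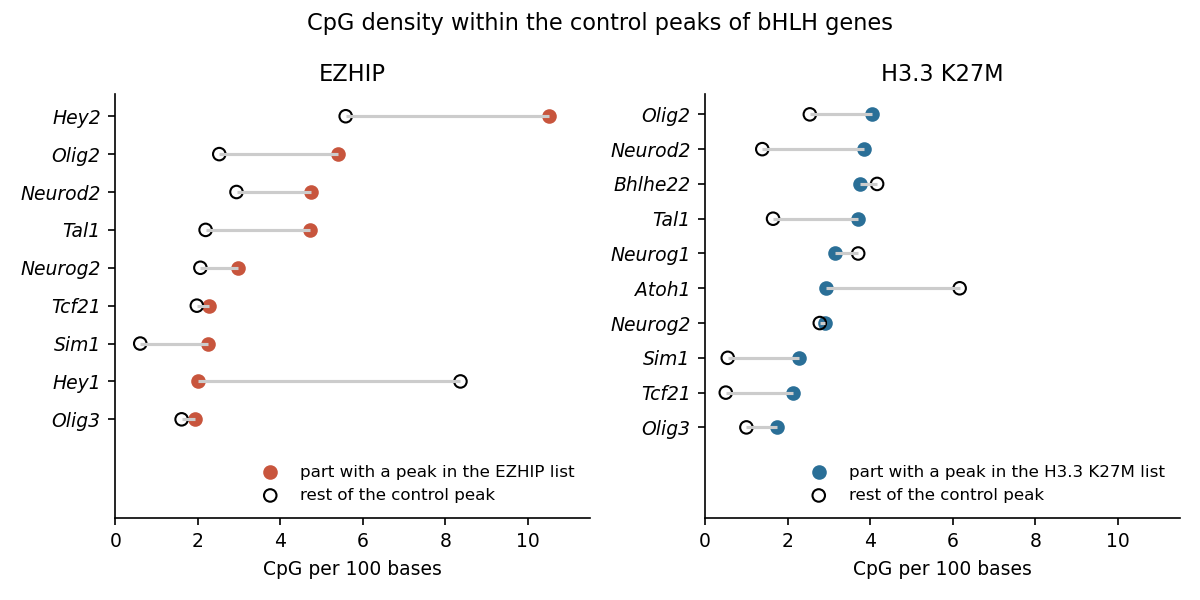
CpG dinucleotides per 100 bases (x axis) in the part of each gene's control peaks that has a peak in the transduced line (filled) and in the rest of those control peaks (open), for EZHIP at left and H3.3 K27M at right. The filled point is higher at 8 of 9 genes with EZHIP and at 7 of 10 with H3.3 K27M.

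Genes that work with the bHLH factors, and bHLH genes expressed in most tissues, were counted in the same way. Of the 3 E proteins that serve as dimer partners (Tcf3, Tcf4 and Tcf12), none had a control peak, and Tcf3 had an EZHIP peak of 399 bases. Of 16 genes of the Notch pathway, which controls HES and HEY genes, 2 had a control peak and none had a peak in a transduced line. Both encode ligands: Dll1 was covered over 21199 bases and Dll4 over 4599 bases. Of 21 widely expressed bHLH genes, such as Myc, Max, Usf1 and Hif1a, 1 had a control peak, Tcfeb (the annotation's older name for Tfeb, a regulator of lysosomal genes), over 1599 bases. That share, unlike the 18 of 58 tissue-specific members, was near the 3.81% of all genes.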

How the data were processed

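RING1B was profiled in MEFs by chromatin immunoprecipitation after crosslinking and micrococcal nuclease digestion. Alignment by the authors was to mm9 with Bowtie (1.0.0 in the submitters' processing notes) under default settings, and MOSAiCS-HMM served for broad peak calling. Each deposited list holds positions alone (chromosome, start, end) and no count, signal or score. All 1418 starts were multiples of 200. Width was taken as end minus start, and positions in the text are 1-based.

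Genes were those of GENCODE vM1 on NCBIM37, the assembly of mm9, and every peak ended within its chromosome there. The gene start was the 5′ end of the gene record, which coincides with the coding start for 3 members (Atoh7, Msgn1 and Sim2). Covered bases are the summed widths of all peaks assigned to a gene. A peak counted with at least 1 base in common. Groups were taken from the cell type in the labels. Shares carry 95% Wilson intervals. Python 3.11.15, numpy 2.4.6, pandas 2.3.3, scipy 1.17.1 and matplotlib 3.10.9 were used, and peak assignment was tested on simulated data.

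The members, classes and gene lists were chosen with earlier results of these data known. Members were named with values when they had a peak in a transduced line, were among the 3 with the most covered bases in their class, or had a control peak of at least 5000 bases alone. The other members with a control peak were named as well, after their values were seen. Older symbols were matched through the RefSeq gene table. The promoter of Atoh7, due by the rule, is not shown because its record begins at the coding sequence. Alternatives concerned the window around the gene, the minimum width, equal numbers of peaks, merging of peaks and the measure of covered bases.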

Additional observations from a re-analysis of the deposited data

How the results depend on the processing

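Of 82 values recomputed under 12 alternative settings for 10 results, 76 stayed within the limits set and 6 moved. The limits were 1.5 times for a count or ratio and the 95% interval for a share. A change of direction was possible only for the ratios of covered bases, and none of these rose above 1. The limit for a share is wide. Among members with a control peak, the EZHIP share of 33.3% at the gene start, against 50.0%, counted as unmoved. Shares over all genes were not recomputed under these settings. With a peak required to overlap the gene start, 5 members had an EZHIP peak and 1 mesenchymal member a control peak. With peaks of at least 5000 bases, 4 members had an EZHIP peak. With each list cut to its 286 widest peaks, 83.3% of the members with a control peak had an H3.3 K27M peak, where fewer narrow control peaks enter. With members lacking a peak included at 0, the median ratio of covered bases was 0.0135 for EZHIP and 0.344 for H3.3 K27M, by construction. The muscle class had no control peak under any setting run for it. Depth is unknown, and with 1 library per group no replicate could be left out. No paired analysis was possible because each group has a single library.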

Other observations

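The 250 bases upstream of the start were searched on both strands for motifs that bHLH factors are known to bind. The E-box CANNTG was found at 11 of 18 members with a control peak and at 28 of 40 members without a peak, against 63.6% of all protein-coding genes. The form CACGTG, which is also counted as CANNTG, was found at 1 of 18 and 4 of 40, against 6.52%. The motif CACNAG, bound by HES factors and read as CTNGTG on the other strand, was found at 2 of 18 and 13 of 40, against 35.7%. A match is a description of the sequence and not a binding site.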
